A study of Mus musculus with 8 samples.

Results

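The integrated stress response was followed here through 33 genes. They are eIF2alpha kinases, eIF2 and eIF2B subunits, phosphatase subunits, the transcription factors ATF4 and CHOP, and genes known as their targets. The list was drawn up with earlier results of these data known. All 33 symbols matched an identifier in both deposited tables, of 21201 genes in one and 23634 in the other, or 24375 in either. The study sequenced RNA of mouse liver from Cpeb4 knockout (Cpeb4 KO) and wild-type (WT) mice, as total liver RNA and as RNA of purified endoplasmic reticulum (ER), with 8 libraries in 4 groups of 2, namely Cpeb4 KO and WT purified ER, and Cpeb4 KO and WT total liver. The ER preparations came from mice that had fasted overnight, no treatment was given, and the feeding state behind total liver is not stated. Age, strain and the cells in which Cpeb4 was deleted are not in the labels. Nor do they tell whether a group's pair of libraries had separate animals as source, so the p-values may measure technical spread only.

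In the integrated stress response, kinases that sense ER stress (PERK), amino acid shortage (GCN2), haem shortage or mitochondrial stress (HRI) or viral RNA (PKR) phosphorylate the alpha subunit of eIF2. Phosphorylated eIF2 blocks its exchange factor eIF2B, so that translation of most mRNAs slows while that of a few, among them Atf4, goes up. ATF4 and CHOP then raise the transcription of genes for amino acid supply, of stress hormones such as FGF21, and of a phosphatase subunit that ends the response. CPEB4 binds the cytoplasmic polyadenylation element (CPE) in 3′ untranslated regions (UTRs) and regulates polyadenylation and protein synthesis of the mRNAs it binds.

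Each table holds the authors' own genotype comparison, with 1 mean normalised count, 1 moderated log2 fold change (drawn towards 0 by DESeq2), its standard error and 1 Wald test per gene, and no value per library. Neither says which RNA preparation it covers, so they are called the smaller and the larger table here. Whole-number steps among the lowest means showed 4 libraries behind each, with relative depths from 0.839 to 1.64 in the smaller table and from 0.717 to 1.26 in the larger, and the means summed to 36848700 and 37351700 counts. Cpeb4 (chromosome 11) had the smallest p of each table, with a log2 fold change of -1.10 ± 0.13 (SE) in the authors' deposited smaller table and -1.16 ± 0.11 in the larger. Its negative sign was read as lower in Cpeb4 KO, and every direction below rests on that reading. The hepatocyte markers Alb, Apoa1, Ttr, Cyp3a11, Serpina1a and Tat were abundant (Tat rose, with 0.72 ± 0.12 and 0.70 ± 0.11), with summed means of 1048730 and 2142510 in the deposited smaller and larger tables, against 5099 and 7242 for 10 macrophage markers.

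None of the integrated stress response genes passed the authors' test at an adjusted p of 0.05 in either deposited table. In the smaller table, 27 members were tested and 0 passed, where 0.266% of 11661 tested genes did (0.163% higher and 0.103% lower in Cpeb4 KO). In the larger table, 31 were tested and 0 passed, where 0.296% of 14180 tested genes did (0.0917% higher and 0.205% lower). At an unadjusted p under 0.05 of the authors' DESeq2 Wald test, 2 members stood in the smaller table (Fgf21 and Aldh18a1) and 1 in the larger (Sesn2), against 4.11% and 3.62% of all tested genes. The lowest adjusted p of any member was 0.668, that of Fgf21 in the deposited smaller table. These are bulk samples, in which fewer cells of a type and less RNA per cell cannot be told apart.

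The members had no common direction. In the authors' deposited smaller table, 14 tested members lay above 0 and 13 below, with a median log2 fold change of 0.00 and a range from -0.34 to 0.23. In the deposited larger table, 19 lay above 0 and 12 below, with a median of 0.03 and a range from -0.19 to 0.25. Among all tested genes, 50.3% and 49.6% lay above 0. The median size of the Wald statistic was 0.65 for the members and 0.57 for all tested genes of the deposited smaller table, and 0.72 and 0.51 in the larger. The tests could have called changes of some size only. The smallest Wald statistics that passed were 3.84 in the deposited smaller table and 3.80 in the larger, so at its own standard error a tested member needed a moderated log2 fold change of between 0.40 and 0.54 in the smaller table, and of between 0.29 and 0.47 in the larger. These sizes are on the moderated scale, where values and standard errors both shrink at low counts, so they do not measure sensitivity. The lowest in the larger table, 0.29, was that of Psat1 at a mean count of 19.8, against 0.31 for Atf5 at 24859. A smaller moderated change would not have been called, and the lack of a call does not show that the genotypes were alike.

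**Figure D1:**
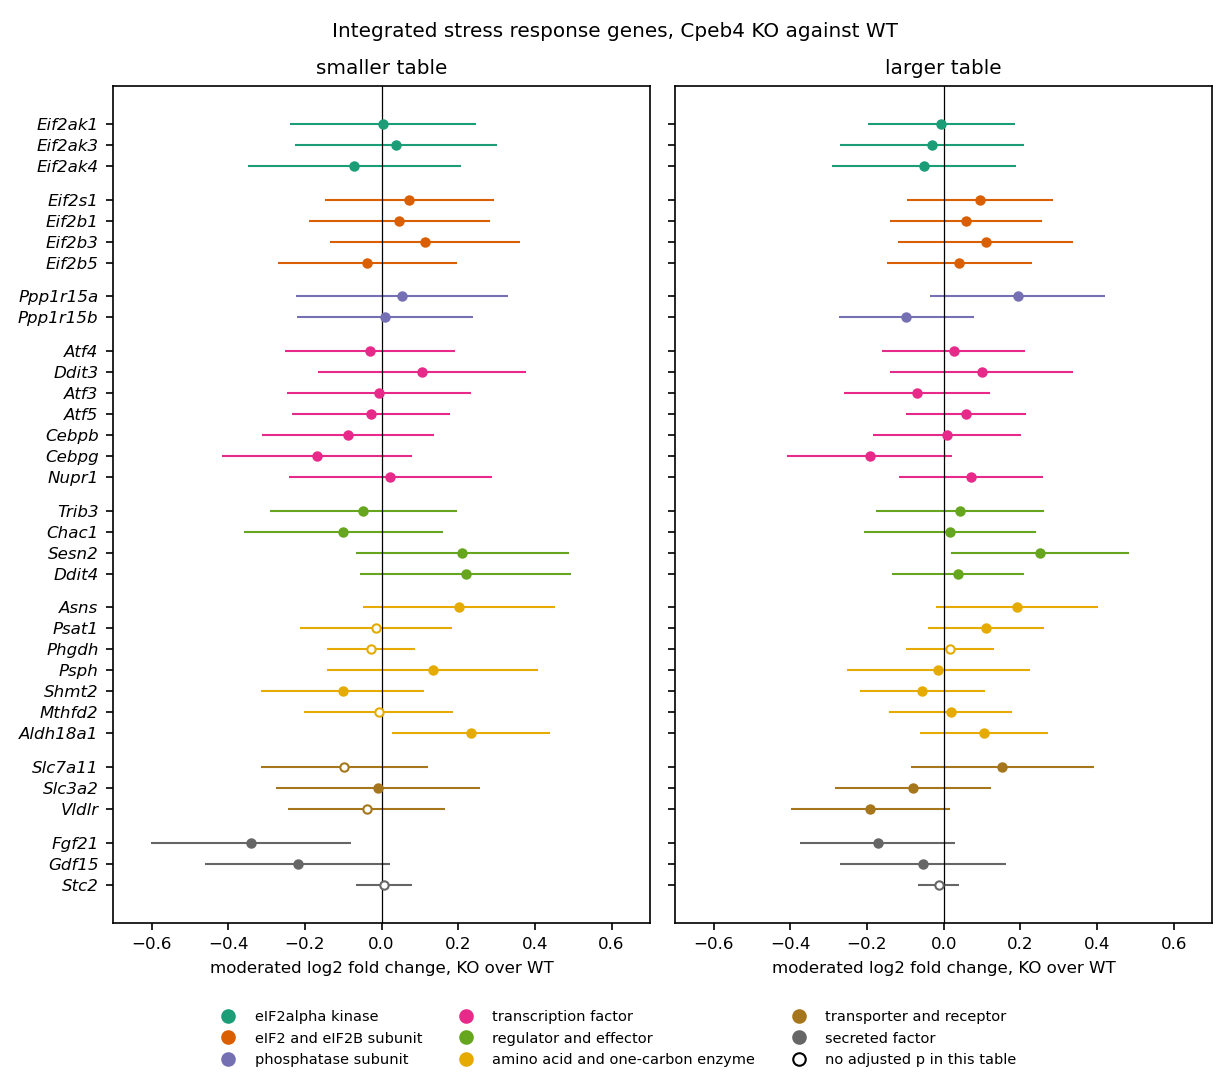
Moderated log2 fold changes (Cpeb4 KO over WT, x axis) of the 33 members (y axis, grouped by role) in the authors' deposited smaller table (left) and larger table (right). Bars are 95% intervals and hollow points are members without an adjusted p; the bars include 0 for 25 of 27 tested members on the left and for 30 of 31 on the right.

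The eIF2alpha kinases among the members were close to 0 in both tables. Eif2ak1 (HRI) had a log2 fold change of 0.00 ± 0.12 at a mean count of 786 in the authors' deposited smaller table, and -0.01 ± 0.10 at 1284 in the larger. Eif2ak3, which encodes PERK, the kinase of the ER membrane, had 0.04 ± 0.13 at a mean count of 74.5 and -0.03 ± 0.12 at 182 in the same deposited tables. Eif2ak4 (GCN2) had -0.07 ± 0.14 and -0.05 ± 0.12, the largest Wald statistic of the 3 in both deposited tables. All 6 values were smaller than their standard errors. The 95% interval of Eif2ak3 ran from -0.23 to 0.30 in the deposited smaller table and from -0.27 to 0.21 in the larger.

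The subunits of eIF2 and eIF2B among the members all had fold changes within their standard errors of 0. Eif2s1 encodes the alpha subunit that the kinases phosphorylate. It had 0.07 ± 0.11 in the authors' deposited smaller table and 0.10 ± 0.10 in the larger. Eif2b3, a subunit of the catalytic part of eIF2B, had 0.11 ± 0.13 and 0.11 ± 0.12 in the deposited tables, Eif2b1 (alpha subunit) 0.05 and 0.06, and Eif2b5 (the catalytic epsilon subunit) -0.04 and 0.04. The value of Eif2s1 is uncertain to a degree, since 10.5% of its 31-base words also occur in other annotated genes, mainly Gm7459, Gm12734 and Gm13602. Of the phosphatase subunits, which guide phosphatase 1 to eIF2alpha, the stress-induced Ppp1r15a (GADD34) had 0.05 ± 0.14 and 0.19 ± 0.12 in the authors' deposited tables, and the constitutive Ppp1r15b (CReP) 0.01 ± 0.12 and -0.10 ± 0.09.

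Atf4 (chromosome 15, 80255184 to 80257541, plus strand, GRCm38), the central transcription factor, had a log2 fold change of -0.03 ± 0.11 in the authors' deposited smaller table (mean count 2656) and 0.03 ± 0.10 in the larger (mean count 2402). The 95% intervals of these moderated values ran from -0.25 to 0.19 and from -0.16 to 0.21. ATF4 is controlled mainly through its translation, which mRNA levels do not measure. Ddit3 (chromosome 10, 127290774 to 127296288, plus strand), which encodes CHOP, had 0.11 ± 0.14 (mean count 318) in the authors' deposited smaller table and 0.10 ± 0.12 (mean count 230) in the larger. Another annotated gene of the same name, Gm4189 and Mars overlap it. Among the other factors, the stress-induced Atf3 had -0.01 and -0.07, Atf5, itself under translational control, -0.03 and 0.06, and Cebpb -0.09 and 0.01 in the authors' deposited smaller and larger tables. Cebpg, a C/EBP partner of ATF4, had the largest Wald statistic of the factors, at -0.17 ± 0.13 and -0.19 ± 0.11 (DESeq2 adjusted p = 0.999 and 1.00), and Nupr1, a stress-induced chromatin protein, had 0.02 and 0.07.

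**Figure D2:**
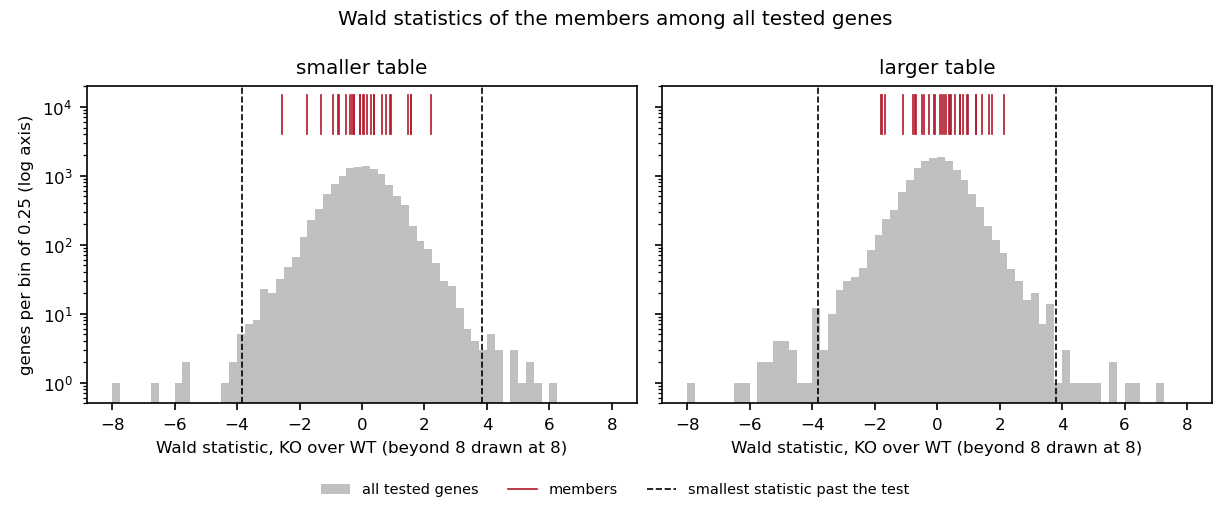
Wald statistics (Cpeb4 KO over WT, x axis) of all tested genes (grey, genes per bin on a log axis) and of the tested members (red ticks) in the smaller table (left) and the larger (right). Dashed lines mark the smallest statistic that passed the authors' test, 3.84 and 3.80, and every member tick lies between them.

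The regulators included Sesn2 (chromosome 4, 132492032 to 132510501, minus strand), a sestrin that restrains mTORC1. It had 0.21 ± 0.14 in the authors' deposited smaller table and 0.25 ± 0.12 in the larger, where its unadjusted p was 0.0334 and its DESeq2 adjusted p 1.00. Ddit4 (REDD1), another inhibitor of mTORC1 signalling, had 0.22 ± 0.14 and 0.04 ± 0.09 in the deposited tables. Trib3, a pseudokinase that acts back on ATF4, had -0.05 ± 0.12 and 0.04 ± 0.11, and Chac1, which degrades glutathione, -0.10 ± 0.13 and 0.02 ± 0.11, in the authors' deposited smaller and larger tables. The values of the last pair had opposite signs in the tables and lay within their errors of 0.

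Enzymes of amino acid and one-carbon metabolism were mixed. Aldh18a1 (chromosome 19, 40550257 to 40588463, minus strand), which makes the precursor of proline and ornithine, had 0.23 ± 0.11 in the authors' deposited smaller table, with an unadjusted p of 0.0262 and a DESeq2 adjusted p of 0.985, and 0.11 ± 0.08 in the larger. Asns (asparagine synthetase) had 0.20 ± 0.13 (mean count 92.7) in the deposited smaller table and 0.19 ± 0.11 (mean count 85.0) in the larger (DESeq2 adjusted p = 0.999 and 1.00). The mitochondrial serine enzyme Shmt2 had -0.10 and -0.06 in the authors' deposited tables. Of the serine synthesis genes, Psph had 0.13 and -0.01, while Psat1 (mean counts 22.1 and 19.8) was tested in the deposited larger table only, at 0.11 ± 0.08. Phgdh had mean counts of 5.75 and 9.00 and no adjusted p in either deposited table, and 55.9% of its 31-base words occur in other annotated genes, so its value is uncertain. Mthfd2, at mean counts of 20.6 and 21.9, had an adjusted p in the deposited larger table alone (log2 fold change 0.02).

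Among transporters and receptors, Slc7a11, the cystine importer, had 0.15 ± 0.12 in the authors' deposited larger table and no adjusted p in the smaller. Its partner chain Slc3a2 had -0.01 ± 0.14 and -0.08 ± 0.10, and the lipoprotein receptor Vldlr -0.19 ± 0.11 in the deposited larger table (DESeq2 adjusted p = 1.00), without an adjusted p in the smaller. The secreted factors Fgf21 and Gdf15 had values below 0 in both tables. Fgf21 (chromosome 7, 45613886 to 45615490, minus strand), a fasting and stress hormone of the liver, had -0.34 ± 0.13 in the deposited smaller table (mean count 82.1), with an interval from -0.60 to -0.08, and -0.17 ± 0.10 in the larger (mean count 96.2) (DESeq2 adjusted p = 0.668 and 1.00). Gdf15, a stress cytokine, had -0.22 ± 0.12 and -0.05 ± 0.11 in the authors' deposited tables. Stc2, a stanniocalcin, was near the detection limit, with mean counts of 2.08 and 1.90 and no adjusted p in either deposited table.

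Markers of other liver cells were looked at beside these values. All 10 macrophage markers had fold changes below 0 in the authors' deposited smaller table and 9 of 10 did in the larger (medians -0.09 and -0.08), and 0 passed in either by the authors' DESeq2 test, also at an unadjusted p under 0.05. Markers of endothelial cells were above 0 for 3 of 4 tested genes in the deposited smaller table and for 2 of 4 in the larger, with 0 passing. The erythroid genes Hba-a1 (-0.42 and -0.30) and Hbb-bs (-0.36 and -0.29) did not pass by the authors' DESeq2 test either, and had an unadjusted p under 0.05 in both deposited tables. Stellate cell markers were below 0 for 1 of 2 and 3 of 3 tested genes, and cholangiocyte markers for 1 of 2 and 1 of 2. Lrat and Alas2 were not analysed here. The part of such cells in the members' values was not tested.

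Whether the genotype difference itself differed between the tables was tested for the 27 members with an adjusted p in both. The z statistic subtracts the larger table's fold change (log2) and divides by the combined standard error, with Benjamini-Hochberg adjustment over 11604 genes. The z test called 0 members, and 0 at an unadjusted p under 0.05, where 0.0172% and 0.138% of all genes passed. The test assumes independent errors and may be conservative here, since the z statistics of all genes had an SD of 0.535. The Wald statistics of all tested genes had SDs of 0.941 in the deposited smaller table and 0.901 in the larger. The part of moderation in the narrow z statistics was not tested. The Wald statistics of the tables correlated over genes (Pearson's r 0.691 over 11604 genes, a description). With the variance lowered by that correlation, the calls among all genes were 9, against 2 without, and those among the members stayed at 0, with a lowest adjusted p of 0.998. The differences ran from -0.17 for Fgf21 to 0.18 for Ddit4, which had the largest z statistic, at 1.09. Between the tables, 10 of the 27 members had opposite signs. The same count was not made over all genes, so it is not read as particular to the members. The libraries may come from the same mice, which the labels leave unsaid, so likeness between the tables is not independent support.

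The levels of the members spanned several orders of magnitude. Per exonic kilobase, Atf5 was highest, at a mean count of 16809 per kilobase in the authors' deposited smaller table and 12473 in the larger, above 98.6% and 98.5% of tested genes or level with them. Shmt2 (3221 and 3041), Aldh18a1 (2140 and 1744), Cebpb (1335 and 997) and Atf4 (1126 and 1019) came next in mean count per kilobase, with Atf4 above Cebpb in the larger table. Among the kinases, Eif2ak1 was highest at 139 and 226 per kilobase in the deposited tables, followed by Eif2ak4 at 29.6 and 37.8 and Eif2ak3 at 12.4 and 30.2. The constitutive phosphatase subunit Ppp1r15b, at 357 and 539, exceeded the inducible Ppp1r15a, at 46.5 and 119 per kilobase. Members listed as targets of ATF4 or CHOP were found at both ends of this range, since Atf5, Shmt2 and Aldh18a1 are among them. Lower ones included Asns at 33.9 and 31.1, Chac1 at 40.5 and 44.6, Atf3 at 19.6 and 17.7 and Nupr1 at 29.0 and 13.1 per kilobase of the authors' deposited means. Lower still were Mthfd2 at 5.91 and 6.27, Psat1 at 5.19 and 4.66, Vldlr at 2.49 and 6.52, and Phgdh at 2.31 and 3.62. Slc7a11 had 2.07 in the smaller table and 15.5 in the larger, and Stc2 was lowest at 0.40 and 0.37. Trib3 stood between, at 402 and 350 per kilobase. The tables give no spread over libraries for these levels.

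**Figure D3:**
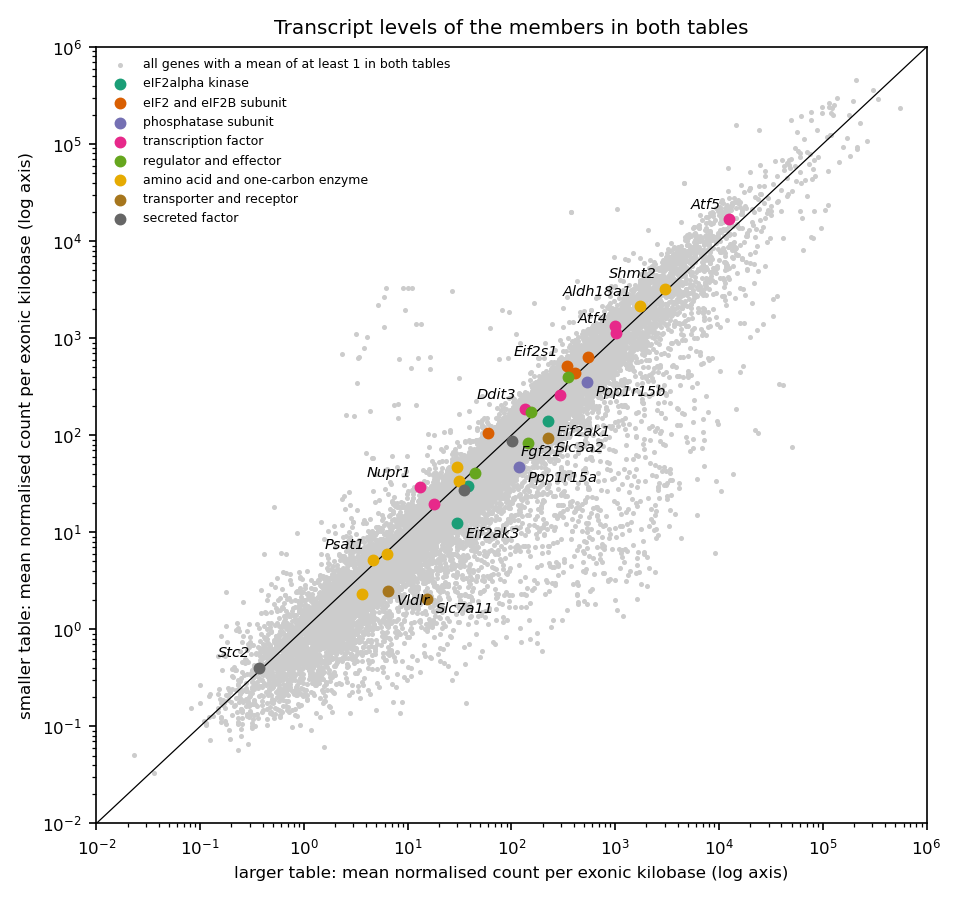
Mean normalised count per exonic kilobase in the larger table (x axis, log scale) and the smaller table (y axis, log scale). Grey points are all genes with a mean of at least 1 in both tables, coloured points the members by role, and the line marks equal values; Atf5 is the highest member and Stc2 the lowest.

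The mean counts of some members differed between the tables. The tables were normalised separately, so a ratio is read only against all 12259 genes with a mean of at least 20 in both, whose median ratio of the smaller over the larger table was 0.826, with 0.252 at the 5th and 1.77 at the 95th percentile. Slc7a11 had a mean count of 28.9 in the authors' deposited smaller table and 215 in the larger, a ratio of 0.134 that lay below the 5th percentile. Vldlr (0.381), Ppp1r15a (0.392), Eif2ak3 (0.409) and Slc3a2 (0.420) followed, and Nupr1 lay above the 95th percentile at a ratio of 2.21. Of 6 members that encode secreted or membrane proteins, 5 lay below the median of all genes, and of 24 other members, 5 did. That grouping was chosen after the ratios were seen and was not tested. The preparation behind each table is not named, and the levels were not used to assign one, so no ratio is read as enrichment in the ER.

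**Figure D4:**
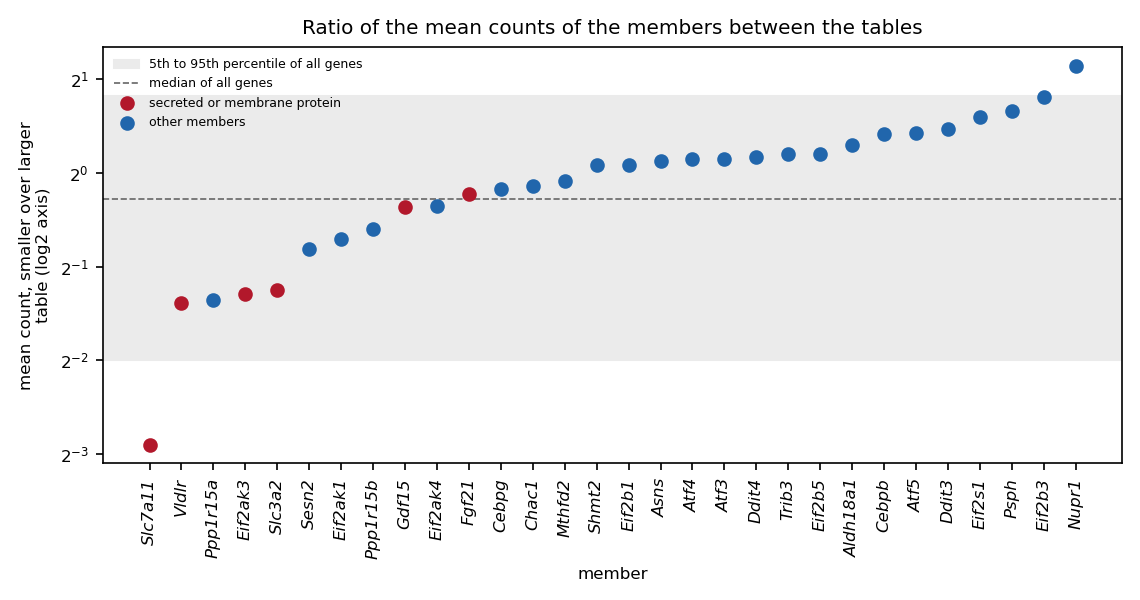
Ratio of the mean count in the smaller table over that in the larger (y axis, log2 scale) for the 30 members with a mean of at least 20 in both (x axis, ordered by ratio). The dashed line is the median of all genes (0.826) and the grey band their 5th to 95th percentile; Slc7a11 (0.134) lies below the band and Nupr1 (2.21) above it.

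ATF4 binds DNA with C/EBP partners at a composite element, searched here as TGATGNAA on both strands in the RefSeq promoter windows of GRCm38.p6, from 250 bases before to 50 after each annotated start. Windows were found for 31 members, all but Eif2b3 and Ppp1r15b. The element was present in 8 of these 31, against 4.51% of 27025 genes with a window. Many members were listed as known targets of ATF4 or CHOP, so these shares are a description and no independent support. The other 23 had no match in their window. The stretches of 30 bases around the element are shown for the 8 members that hold it, with the element in capitals, as TGATGNAA or as its reverse complement. The sequences are read 5′ to 3′ along the gene's strand.
Asns (chr6:7693214-7693243, minus strand): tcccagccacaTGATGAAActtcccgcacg
Atf3 (chr1:191183425-191183454, minus strand): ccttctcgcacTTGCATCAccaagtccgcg
Chac1 (chr2:119351038-119351067, plus strand): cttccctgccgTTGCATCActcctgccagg
Fgf21 (chr7:45615611-45615640, minus strand): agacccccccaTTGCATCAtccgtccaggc
Nupr1 (chr7:126625562-126625591, minus strand): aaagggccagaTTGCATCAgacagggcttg
Slc7a11 (chr3:50443661-50443690, minus strand): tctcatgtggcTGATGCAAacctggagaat
Trib3 (chr2:152344028-152344057, minus strand): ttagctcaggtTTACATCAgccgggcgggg
Vldlr (chr19:27216809-27216838, plus strand): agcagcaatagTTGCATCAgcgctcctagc

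Slc7a11 had another copy 19 bases further on, on the other strand, in its window.
These 8 genes did not move together. Of 6 tested in the authors' deposited smaller table, 2 lay above 0, with log2 fold changes between -0.34 (Fgf21) and 0.20 (Asns). In the larger, 5 of 8 did, between -0.19 (Vldlr) and 0.19 (Asns), and 0 passed in either deposited table by the authors' DESeq2 test. A match of letters is no evidence of binding, and genes without a match in this window may hold one elsewhere.

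CPEs were searched as TTTTAT or TTTTAAT on the transcript strand of the 3′ UTR of the longest coding transcript of each gene (GENCODE M21). Of the 33 members, 16 held at least 1, or 48.5%, against 62.1% of 10472 genes with an adjusted p in both tables and an annotated 3′ UTR. The members' 3′ UTRs were shorter, with a median of 841 bases against 1187. Among genes with 3′ UTRs of up to 685 bases, 4 of 14 members and 29.9% of all genes held a CPE. Up to 1880 bases the counts were 6 of 11 members and 66.6% of all genes, and above that 6 of 8 members and 90.3%. Neither Atf4 nor Ddit3 held one in its 3′ UTR, of 81 and 197 bases. Slc7a11 held the most, at 17, in the longest 3′ UTR of the members (7364 bases). The last CPE is shown for the 6 members where it lay nearest to the annotated transcript end, in capitals within 30 bases (GRCm38), as the sites a CPE-binding protein could meet there.
Ppp1r15a (chr7:45522922-45522951, minus strand): ataagaaataaagccTTTTAATttgtagtg
Cebpb (chr2:167690372-167690401, plus strand): aaagtgaagacaTTTTAATaaacttttttg
Aldh18a1 (chr19:40550301-40550330, minus strand): gactagagattaTTTTAATactttagattc
Psph (chr5:129765638-129765667, minus strand): ttacatggagaaTTTTATactctgaattct
Eif2s1 (chr12:78886876-78886905, plus strand): tttactgaaaagTTTTATatttaagagaac
Eif2ak3 (chr6:70905104-70905133, plus strand): aatacgtttattTTTTATttataaaaattc

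Members with a CPE were above 0 for 9 of 13 tested genes in the authors' deposited smaller table and for 10 of 16 in the larger. Those without one were above 0 for 5 of 14 and 9 of 15. Among all tested genes of the deposited tables that have an annotated 3′ UTR, 57.7% and 47.2% of those with a CPE lay above 0. Of those without, 34.8% and 46.7% did. The members' split in the smaller table thus has the direction of the split over all such genes of that table. The presence of these letters does not show that CPEB4 binds the mRNA.

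Genes of the pathway outside the 33 were taken from lists drawn up with earlier results of these data known. Of other factors of the response (eIF2 and eIF2B subunits, PKR, phosphatase 1 catalytic subunits, GCN1 and others), 16 of 17 were tested, 8 above and 8 below 0 in each deposited table, and 0 passed by the authors' DESeq2 test, with 1 in the smaller table and 0 in the larger at an unadjusted p under 0.05. The 1 was Impact, an inhibitor of GCN2 activation, at 0.37 ± 0.14 in the authors' deposited smaller table and 0.21 ± 0.12 in the larger (DESeq2 adjusted p = 0.597 and 1.00). Eif5 (0.16 and 0.09), Ppp1cb (0.15 and 0.04), Eif2ak2, which encodes PKR (-0.11 and -0.14), and Eif2s3y (-0.04 and -0.13) followed in the authors' deposited tables. Of 32 other genes listed as ATF4 targets, 21 and 25 were tested, with 15 and 17 above 0. Slc7a5, Slc6a9 and Map1lc3b of that list, and Eif2s2 of the other factors, matched no identifier by symbol and were not analysed here. By the authors' DESeq2 test, 1 of the tested ATF4 targets rose in the deposited smaller table and 0 passed in the larger. At an unadjusted p under 0.05 of that test stood 5 and 6 of them, or 23.8% and 24.0%, against 4.11% and 3.62% of all tested genes, in a list drawn up with earlier results known and not tested as a set. The gene that rose was Cth, cystathionine gamma-lyase of cysteine synthesis, at 0.55 ± 0.13 (DESeq2 adjusted p = 0.0191), against 0.23 ± 0.11 in the larger table (adjusted p = 1.00). The difference between its values, 0.32 ± 0.17, did not pass the z test (adjusted p = 1.00). Mthfd1l, a mitochondrial folate enzyme, did not pass (0.46 ± 0.14 and 0.26 ± 0.12 in the authors' deposited tables). None of the next 3 passed either, and Cbs, of the same pathway as Cth, had 0.09 and 0.20, the proapoptotic Bbc3 0.23 and 0.27, and Herpud1, an ER degradation factor, -0.28 and -0.30 in the deposited tables.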

How the data were processed

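Gene-level results of the authors' comparison of liver RNA were used, 2 tables with 6 numeric columns each. STAR 2.3.0e, DESeq2 1.6.3 and mm10 are named per the submitters' processing notes. Annotation, counting tool and strand setting: not given in the sources used here. Per the file headers, the authors deposited a mean signal (mean of counts over size factors), a log2 fold change and standard error, a Wald score, a p-value and an adjusted p-value. The adjusted p-values equal a Benjamini-Hochberg adjustment over the genes that have one, with lowest means of 31.9 in the smaller table and 17.4 in the larger; genes without one were left out of tests. Identifiers were matched to GENCODE M21 names (GRCm38, which mm10 names), with 21080 of 21201 and 23484 of 23634 matched.

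The planned test of counts per library was not run, since the tables give no values per library, and the authors' Wald test stands in its place. The z test of the difference between tables treats their errors as independent; it was tested on data simulated with independent errors, which does not show that it is calibrated on these tables. Described in full were Atf4, Ddit3, the kinases and the members with the largest Wald statistics overall and per role; listed genes outside the members were named by the largest 3 per list and table. The members and lists were chosen with earlier results of these data known. Shared 31-base words, overlaps and 3′ UTRs came from GENCODE M21. Of the members, 17 overlap another annotated gene, 13 of them one on the other strand, so without a known strand setting their reads may be mixed. Phgdh and Eif2s1 share over 10% of their words with other genes, the rest at most 4.56%. Python 3.11.15, pandas 2.3.3, numpy 2.4.6 and scipy 1.17.1 were used.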

Additional observations from a re-analysis of the deposited data

How the results depend on the processing

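The count of members called was 0 in both tables under each alternative run. The runs used no filter on the mean (33 members adjusted over all genes), a mean of at least 100, or an adjusted p of 0.1. With a mean of at least 100, 20 members of the smaller table and 22 of the larger remained. Over all genes, these runs called 26 of 21201, 32 of 9663 and 43 of 11661 in the smaller table. In the larger table they called 32 of 23634, 39 of 10981 and 62 of 14180. Calls were so rare among all genes that the repeated 0 says little about the members. No member differed between the tables with a mean of at least 100 in both, or when the variance was lowered by the correlation of the Wald statistics over genes (0.691), where the calls among all genes went to 9 of 11604, against 2. All 158 alternative adjusted p-values of single members stayed on their side of the threshold. A CPE was found in 12 of 33 members with TTTTAT alone, against 56.7% of all genes, and in 8 of 33 when only the last 300 bases of the 3′ UTR were searched, against 33.8%. No paired analysis was possible because the tables hold no values per library, and for the same reason no replicate could be left out. The moderated fold changes understate those of genes with low counts most.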

Other observations

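Neighbouring stress lists, drawn up with earlier results of these data known, were looked at in the same way. Among all tested genes of the smaller and larger tables, 50.3% and 49.6% lay above 0. Of those genes, 0.266% and 0.296% passed the authors' DESeq2 test, and 4.11% and 3.62% had an unadjusted p under 0.05 in it. With so few calls among all genes, a count of 0 says little about such short lists. All 20 cytosolic aminoacyl-tRNA synthetases, many of which ATF4 is known to induce, were tested, with 8 above 0 in the authors' deposited smaller table and 10 in the larger, and 0 passed by the authors' DESeq2 test. At an unadjusted p under 0.05 stood 1 in the smaller table (Yars, -0.30 ± 0.13, with -0.17 ± 0.12 in the larger deposited table) and 0 in the larger. Mars had -0.19 and -0.06, Farsa -0.18 and -0.06, Lars 0.15 and 0.19, and Tars 0.11 and 0.14 in the deposited tables. Of 16 genes of the other arms of the unfolded protein response, 7 lay above 0 in the smaller table and 4 in the larger. Their median log2 fold changes were -0.03 and -0.07, a lean that was not tested. By the authors' test 0 of them passed, also at an unadjusted p under 0.05. Xbp1, the factor spliced by IRE1, had -0.12 ± 0.11 and -0.16 ± 0.09, the chaperone Hyou1 -0.13 and -0.17, Sel1l of ER-associated degradation -0.06 and -0.14, and the chaperone Hsp90b1 0.13 and 0.05, in the authors' deposited smaller and larger tables.

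Over all tested genes with an annotated 3′ UTR, the share above 0 differed with the presence of a CPE in 1 table. In the deposited smaller table, 57.7% of 6510 genes with a CPE in the 3′ UTR lay above 0 and 34.8% of 3972 genes without one did, with median log2 fold changes of 0.02 and -0.04. In the larger, the shares were 47.2% of 7412 genes and 46.7% of 4465, with a median of -0.01 in both. Genes with a CPE have longer 3′ UTRs, and the part of length or base composition in this split was not tested.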
